A study of Rattus norvegicus with 32 samples.

Results

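The tumour necrosis factor (TNF) superfamily, its ligands and its receptors, was followed in the left ventricle of septic rats with and without a β1-blocker. Members were the probes that were not controls and whose gene name, in either version of the array annotation, began with Tnfsf or Tnfrsf or was Tnf, Lta, Ltb, Fas, Faslg, Cd40 or Cd40lg. This gave 37 genes on 49 probes, out of 27963 gene names and 45598 probes on the array. Of these probes, 42 carried such a name in both annotation versions, 5 only in the version of the female arrays and 2 only in that of the male arrays. The hearts came from 32 Wistar rats of 9 to 12 weeks, collected 20 h after surgery, and each gave 1 array. In each sex there were 5 sham-operated rats, 5 with cecal ligation and puncture (CLP, a surgical model of abdominal sepsis) and 6 with CLP plus landiolol, an ultra-short-acting β1-blocker infused at 0.1 mg/kg/min from 1 h after the surgery. Rats without landiolol received saline, and no group received antibiotics. Before freezing, the hearts had been studied by imaging in the animal and perfused outside the body, so all groups share that handling. CLP was compared with sham for the response to sepsis, CLP plus landiolol with CLP for the effect of the drug, and CLP plus landiolol with sham for what remained of the response.

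Ligands of the TNF superfamily are made as trimers on the cell surface, and many are released by proteases. Receptors with a death domain, such as Tnfrsf1a and Fas, can recruit adaptors that lead either to NF-κB signalling or to caspases, whereas receptors without one bind TRAF proteins directly and mostly promote survival and activation. Decoy receptors bind a ligand and carry no working signal. In the heart, TNF is known as an early mediator of sepsis that depresses contraction, and its receptors are found on cardiomyocytes, endothelium and resident immune cells, while lymphotoxins, CD40 and TRAIL (Tnfsf10) are best known from lymphocytes, antigen-presenting cells and interferon responses.

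Several members had more than 1 probe, and for Cd40 and Faslg the probes did not give the same answer. Their last 30 bases, as the scanner files give them, are shown because the probes of each pair or trio read different stretches of the gene. The 3 Cd40 probes mapped to chr3:156107231-156107290, chr3:156107630-156107689 and chr3:156099429-156099488 and the 2 Faslg probes to chr13:77471319-77471378 and chr13:77472996-77473055, all in build rn4. Capitals mark a run of alternating T and G. No gene models of rn4 were used here, so the exon of each probe is not stated.
Cd40 A_42_P666951: gcagtaatatctacagagtgcagcaatgca
Cd40 A_44_P1104205: actcacatacataaaataaataaatcttaa
Cd40 A_44_P442823: aaccgtgcgactcaggcgaattctcagctc
Faslg A_44_P1112038: tgcagaggctgtgtaTGTGTGTGTGTGTGT
Faslg A_44_P409820: acgcgtacattacggagtacatattagaaa
A and T made up 83.3% of the shown bases of Cd40 A_44_P1104205, against 56.7% and 43.3% in the other Cd40 probes. The run in Faslg A_44_P1112038 was 15 bases long. Whether these features bear on the signals was not tested.

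Promoters are shown for the cytokine the family is named after and for 3 members that passed the test in at least 1 comparison with sham, as the 250 bases before the annotated start of the gene (RefSeq, build GRCr8). They lie at chr20:3626435-3626684 on the plus strand for Tnf, chr20:3634055-3634304 on the minus strand for Ltb, chr2:112136689-112136938 on the plus strand for Tnfsf10 and chr4:159836869-159837118 on the plus strand for Tnfrsf1a. Capitals mark a match to one of 4 motifs searched on both strands: GGG and TTTCC around any 2 bases for NF-κB, TTCNNNGAA for STAT proteins, GAAA and GAAA around any 2 bases for interferon regulatory factors, and TATAAA.
Tnf: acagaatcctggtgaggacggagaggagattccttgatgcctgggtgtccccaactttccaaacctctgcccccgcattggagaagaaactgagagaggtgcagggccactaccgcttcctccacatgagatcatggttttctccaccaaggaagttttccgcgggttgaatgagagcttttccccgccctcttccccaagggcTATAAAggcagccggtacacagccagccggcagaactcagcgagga
Ltb: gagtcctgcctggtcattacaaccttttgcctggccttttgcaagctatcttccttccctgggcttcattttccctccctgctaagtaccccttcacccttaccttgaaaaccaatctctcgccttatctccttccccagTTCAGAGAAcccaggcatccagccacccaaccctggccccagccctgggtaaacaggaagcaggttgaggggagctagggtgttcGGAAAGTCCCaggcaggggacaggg
Tnfsf10: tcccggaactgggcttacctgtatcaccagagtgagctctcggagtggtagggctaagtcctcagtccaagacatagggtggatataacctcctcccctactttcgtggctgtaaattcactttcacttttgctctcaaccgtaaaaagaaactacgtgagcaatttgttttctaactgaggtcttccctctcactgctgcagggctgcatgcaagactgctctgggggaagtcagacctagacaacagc
Tnfrsf1a: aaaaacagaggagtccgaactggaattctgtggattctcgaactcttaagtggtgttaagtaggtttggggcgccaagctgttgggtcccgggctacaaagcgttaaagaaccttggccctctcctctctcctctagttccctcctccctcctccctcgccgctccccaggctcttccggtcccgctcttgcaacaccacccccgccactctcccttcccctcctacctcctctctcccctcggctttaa
Of the 37 member genes, 27 had a promoter in this collection. The NF-κB letters were found in 2 of them (Ltb and Tnfrsf4) and in 1.3% of all 33469 promoters, the STAT letters in 3 (Lta, Ltb and Tnfrsf12a) and in 7.67%, the interferon letters in 3 (Tnfrsf17, Tnfrsf1b and Tnfsf13b) and in 3.41%, and TATAAA in 8, Tnf among them, and in 12.9%. The windows of Tnfsf10 and Tnfrsf1a held none of the 4. A match is a run of letters and says nothing about binding.

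The arrays lay on 4 slides, 2 with males and 2 with females, and every group lay on both slides of its sex, so sex and slide cannot be told apart and no level was compared between the sexes. The first female slide was read with a scanner software protocol other than that of the remaining 3 slides. Within a sex, pairs of arrays had correlations of 0.936 to 0.989 in males and 0.930 to 0.986 in females, and between 34920 and 43155 spots per array were well above background. In males every group lay in both rows of its slides. In females all 5 sham arrays were in row 1, all 6 CLP plus landiolol arrays were in row 2, and the CLP arrays were split 3 to 2, so for CLP plus landiolol vs sham in females the row of the slide and the treatment cannot be told apart.

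Of the members, 33 probes of 27 genes were tested in each sex, since they stood well above background in 80% or more of the arrays in 1 of its groups, Tnfsf8 only in males and Tnfsf15 only in females. The other 9 genes did not reach this in either sex. Cd40lg, Tnfsf11 and Tnfsf4 were well above background on 0 of the 32 arrays, and the array readings above background, summed over the probes of a gene, were 1 for Tnfrsf19 and for Tnfsf18, 2 for Tnfsf14, 4 for Tnfrsf9, 5 for Tnfrsf10b and 6 for Tnfrsf8. Cd40lg is the ligand of CD40 on activated T cells, Tnfsf11 (RANKL) that of bone-resorbing cells and Tnfsf4 that of OX40.

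In males, CLP vs sham passed the false discovery rate (FDR) of 1% at 1 of 33 member probes (3.03%), that of Tnfrsf1a, which rose, where 7.81% of all probes tested passed. In females it passed at 4 of 33 probes (12.1%) of 3 genes, Ltb, Tnfsf10 and Cd40, all of which fell, where 3.63% of all probes passed. CLP plus landiolol vs CLP, at an FDR of 5%, passed at 1 member probe in males (3.03%), that of Tnfrsf21, which fell (all probes 1.56%). In females it passed at 0 (all probes 0.0945%), with 2 of 33 member probes (6.06%) at an unadjusted p under 0.05 in limma, where 9.34% of all probes were, and 0 genes called by the significance analysis of microarrays (SAM), the test of the study's methods. CLP plus landiolol vs sham passed at 1 probe in males (3.03%), Tnfrsf1a (all probes 4.15%), and at 4 probes (12.1%) of 3 genes in females, Ltb, Cd40 and Fas, all of which fell (all probes 5.25%). In males the member shares, each of 1 probe, were below those of all probes against sham and above theirs for the drug against CLP, and in females both comparisons with sham had larger ones. Each of these female shares counted a gene at more than 1 probe, Tnfsf10 for CLP and Cd40 for CLP plus landiolol. The dimmer Tnfsf10 probe was tested in females because of its sham arrays, so its fall adds no support to the share. The comparisons with a common group share its arrays and are not independent of each other.

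Over the 33 member probes the median log2 difference for CLP vs sham was -0.19 in males and -0.29 in females, against 0.01 and -0.01 over all probes. Member differences had a median size of 0.45 and 0.65, against 0.24 and 0.25 over all probes. For the drug against CLP the sizes were 0.38 in males and 0.29 in females, against 0.2 and 0.17. Larger member sizes were therefore not particular to CLP vs sham. With the drug, CLP plus landiolol vs CLP had a median of 0.32 in males, with 25 of 33 probes above 0, and -0.05 in females, with 16 of 33 above 0. Its median against sham was 0.09 in males and -0.26 in females. The groups did not overlap at 2 member probes for CLP vs sham in males (6.06%, all probes 12.3%) and at 3 in females (9.09%, all probes 8.32%). The counts were 2 in males (6.06%, all probes 7.79%) and 6 in females (18.2%, all probes 9.74%) for CLP plus landiolol vs sham, and 0 in both sexes for the drug against CLP (all probes 2.27% and 1.15%). The female share for CLP vs sham was near that of all probes, and the one for CLP plus landiolol vs sham was above it.

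**Figure D1:**
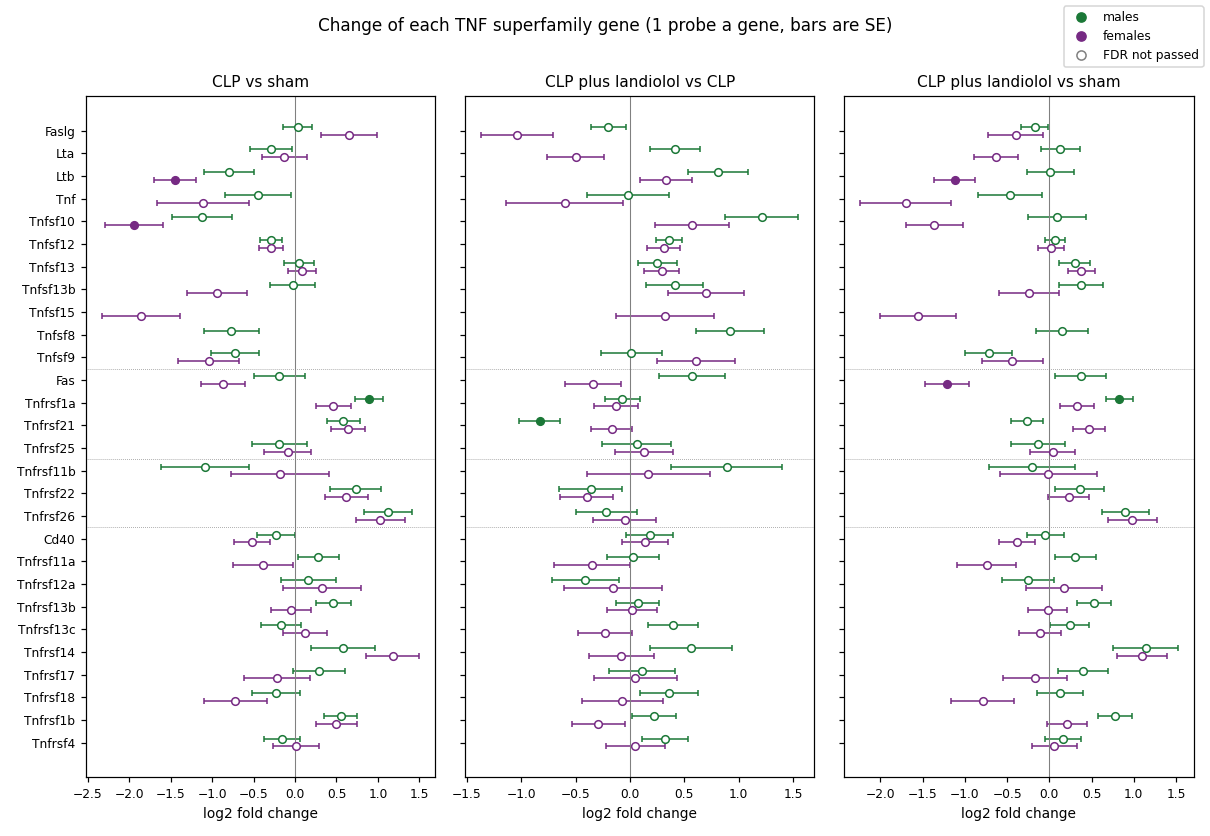
Log2 difference and its standard error (limma) for each tested member gene, shown by its brightest probe, in the 3 comparisons, with males in green and females in purple and filled symbols where the FDR was passed. Dotted lines separate ligands, receptors with a death domain, decoy receptors and the other receptors; most ligands lie below 0 for CLP vs sham, and most male ligands lie above 0 for CLP plus landiolol vs CLP.

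Among the 16 ligands, 10 were tested in each sex. For CLP vs sham the median log2 difference was -0.37 in males and -0.99 in females, 2 of 10 were above 0 in each sex, and 2 in females passed the FDR, both downwards. Ligand medians for the drug against CLP were 0.38 and 0.31, with 8 and 7 of 10 above 0. In limma 0 ligands passed there, with 4 in males and 1 in females at an unadjusted p under 0.05, where 14.8% and 9.34% of all probes were. SAM called 4 in males (Ltb, Tnfsf8, Tnfsf10 and Tnfsf12) and 0 in females. The share of all probes called by SAM was not computed, so these calls cannot be set against the whole array. Against sham, the treated groups had medians of 0.08 and -0.53, with 1 female ligand passing, downwards.

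Ltb, lymphotoxin β, is the membrane anchor of the lymphotoxin heterotrimer and is made mainly by lymphocytes. In females its log2 level was 8.49, 8.22, 8.49, 8.37 and 8.90 in the sham arrays and 7.25, 7.14, 7.02, 6.09 and 7.73 in the CLP arrays. In the 6 CLP plus landiolol arrays it ran from 6.98 through a median of 7.31 to 7.86. Every female septic array, with or without the drug, was below every sham array. Ltb fell by 1.45 ± 0.25 (SE) with CLP (limma, adjusted p = 0.00214) and by 1.12 ± 0.24 with CLP plus landiolol (adjusted p = 0.00666), and the 2 septic groups differed by 0.33 (adjusted p = 0.733). The fall with CLP was -2.01 and -0.96 within the 2 female slides, and the one with CLP plus landiolol was -1.54 and -0.64. In bulk tissue, fewer cells of a type and less RNA per cell cannot be told apart. In males Ltb was 9.02, 8.35, 7.35, 7.93 and 8.62 in sham and 8.05, 7.66, 7.17, 7.09 and 7.31 in CLP, and between 7.63 and 8.70 with a median of 8.32 in CLP plus landiolol. The male groups overlapped, with differences of -0.80 ± 0.30 for CLP vs sham (adjusted p = 0.0818), 0.81 ± 0.28 for the drug against CLP (adjusted p = 0.185) and 0.01 for CLP plus landiolol vs sham. Its promoter is the one above with both an NF-κB and a STAT match, 25 to 16 and 110 to 102 bases before the start. Leaving out 1 female array at a time never ended the call for CLP vs sham, but a fit of only these 2 groups did (adjusted p = 0.0107). The call for CLP plus landiolol vs sham was lost without sham replicate 1, 3, 4 or 5 or CLP plus landiolol replicate 1, 3, 5 or 6 (adjusted p of 0.013 to 0.0215).

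Tnfsf10, or TRAIL, is an interferon-induced ligand that can kill through death receptors. Its brightest probe, A_42_P840729, bears the gene name only in the annotation of the female arrays. Female levels were 12.28, 11.66, 12.53, 11.10 and 12.14 in sham, 9.96, 9.94, 9.68, 9.09 and 11.35 in CLP, and 10.21 to 11 with a median of 10.59 in CLP plus landiolol. All CLP arrays but one were lower than every sham array, and the CLP plus landiolol arrays did not overlap with sham. Tnfsf10 fell by 1.94 ± 0.35 with CLP (limma, adjusted p = 0.0027), with -2.80 and -1.05 within the slides, and the call was lost in a fit of only these 2 groups (adjusted p = 0.017). CLP plus landiolol was 1.36 ± 0.34 lower than sham, short of the FDR of 1% (adjusted p = 0.0146), and 0.57 higher than CLP (adjusted p = 0.64). Male levels were 12.13, 11.07, 10.11, 10.14 and 10.12 in sham, 10.33, 9.53, 9.42, 9.28 and 9.41 in CLP, and 10.27 to 11.40 with a median of 10.68 in CLP plus landiolol. Of the male CLP arrays only replicate 1 reached the range of the other groups. The male differences were -1.12 ± 0.36 for CLP vs sham (adjusted p = 0.0446) and 1.21 ± 0.34 for the drug against CLP (adjusted p = 0.098). The latter passed the FDR of 5% in limma without CLP replicate 1 (1.40, adjusted p = 0.0393), without sham replicate 1 (adjusted p = 0.0279), with the slide as a block (1.29, adjusted p = 0.0195) and in a fit of only the 2 groups (adjusted p = 0.0499). With the slide as a block, the male CLP vs sham difference passed as well (-1.28, adjusted p = 0.00433).

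The other Tnfsf10 probe, A_42_P733671, spans chr2:113214957-113220001 and was dim. In females it read 6.28, 6.13, 6.79, 5.02 and 6.61 in sham and 3.79, 4.47, 3.33, 2.05 and 5.48 in CLP, where 2 of 5 arrays were well above background. The probe was tested in females because all 5 sham arrays were above background, and in males because of CLP plus landiolol. Its fall from sham in females and its rise with the drug in males are therefore no support. In females it fell by 2.34 ± 0.49 (limma, adjusted p = 0.00669), with adjusted p of up to 0.0202 when single arrays were left out. In males it was well above background on 0 of 5 CLP arrays, 3 of 5 sham arrays and 5 of 6 CLP plus landiolol arrays. The male means were 4.39 ± 0.89 (SD, n = 5) in sham, 3.09 ± 0.41 (n = 5) in CLP and 4.31 ± 1.23 (n = 6) in CLP plus landiolol. Measured against the lowest signal well above background, the mean of CLP was at least 1.79-fold below that of sham (limma, adjusted p = 0.122). The mean of CLP plus landiolol was at least 1.68-fold above that of CLP (limma, adjusted p = 0.289). Neither difference passed in limma. SAM called the male CLP vs sham difference of -1.30. Without CLP plus landiolol replicate 5, the male difference for the drug against CLP was 1.70 and passed the FDR of 5% in limma (adjusted p = 0.0301).

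**Figure D2:**
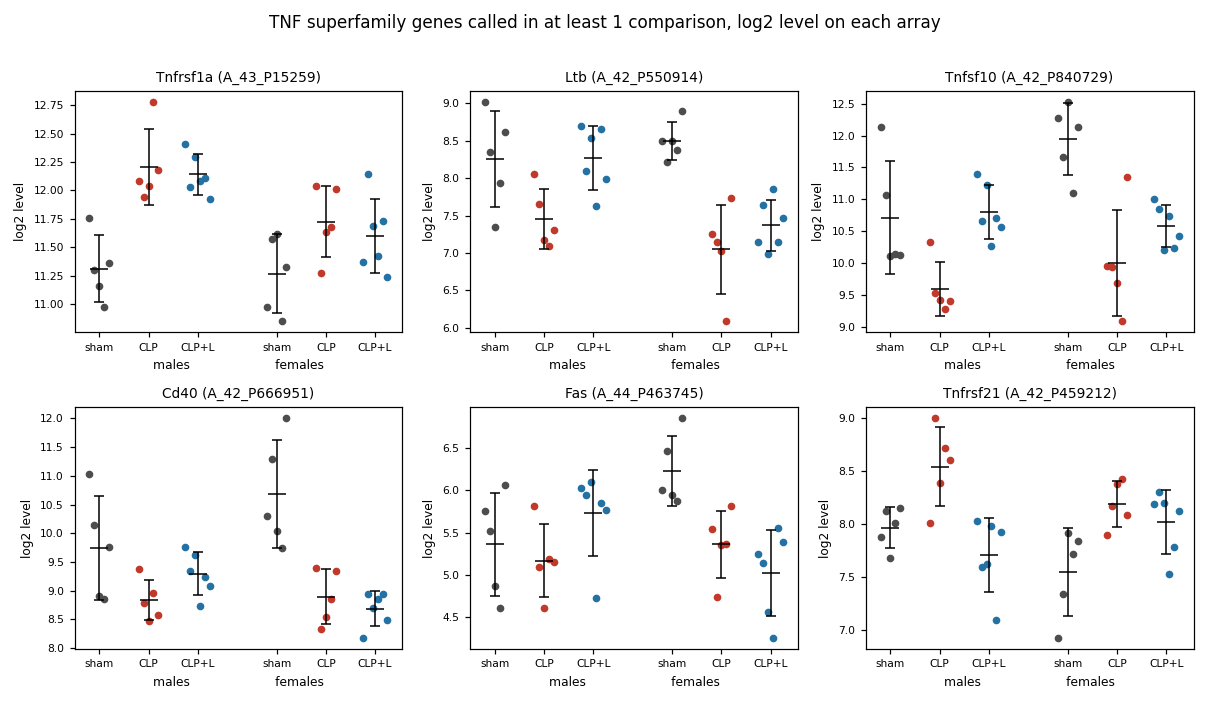
Log2 level on each array (points) with the mean and SD (bars) for the 6 members that passed the FDR in at least 1 comparison, in sham, CLP and CLP plus landiolol, males and females side by side. Tnfrsf1a is higher in all male septic arrays than in male sham, and Ltb and Cd40 are lower in all female septic arrays than in female sham.

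Tnf itself did not pass in any comparison in limma. At its brighter probe, A_64_P034414, male levels were 14.64, 13.98, 12.97, 14.09 and 14.31 in sham, 14.13, 13.91, 12.83, 13.84 and 13.02 in CLP, and 12.09 to 14.36 with a median of 13.72 in CLP plus landiolol. In females they were 12.88, 14.80, 14.43, 14.61 and 14.62 in sham, 13.74, 11.94, 13.47, 13.48 and 13.18 in CLP, and 10.84 to 13.71 with a median of 13 in CLP plus landiolol. Sham and septic arrays overlapped in both sexes, in females because of sham replicate 1. The differences for CLP vs sham were -0.45 ± 0.40 in males (limma, adjusted p = 0.519) and -1.11 ± 0.56 in females (adjusted p = 0.255), and for CLP plus landiolol vs sham -0.47 ± 0.38 (unadjusted p = 0.241) and -1.70 ± 0.54 (adjusted p = 0.0475, against an FDR of 1%). Without female sham replicate 1 they became -1.45 (adjusted p = 0.143) and -2.05 (adjusted p = 0.0256). At the second Tnf probe, A_43_P11513, CLP plus landiolol vs sham in females differed by -1.75 ± 0.51 (adjusted p = 0.0344), was called by SAM and reached -2.11 (adjusted p = 0.00857) without CLP plus landiolol replicate 6. Its other differences were -0.25 (adjusted p = 0.696) in males and -1.22 (adjusted p = 0.18) in females for CLP vs sham. At both probes and in both sexes the mean Tnf level 20 h after CLP was below that after sham surgery, within the spread between rats.

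Lta, the soluble lymphotoxin α encoded beside Tnf, was dimmer. In males it read 7.35, 6.39, 6.35, 6.17 and 6.75 in sham and 6.76, 6.37, 6.10, 6.29 and 6.07 in CLP, and in females 6.12, 6.36, 6.90, 6.21 and 6.63 in sham and 6.26, 7.05, 5.80, 5.91 and 6.55 in CLP. These groups overlapped, and the CLP vs sham differences were -0.29 (limma, adjusted p = 0.502) and -0.13 (adjusted p = 0.837). Its lowest adjusted p in a comparison was 0.125, for CLP plus landiolol vs sham in females (-0.63 ± 0.26).

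Faslg, the ligand of Fas on cytotoxic lymphocytes, gave opposite signs at its 2 probes in females. At A_44_P1112038 female levels were 6.01, 6.07, 6.51, 6.58 and 6.12 in sham, 5.95, 8.03, 6.48, 7.74 and 6.32 in CLP, and 5.23 to 6.20 with a median of 6.03 in CLP plus landiolol. The higher mean of CLP came from replicates 2 and 4, the only CLP arrays on the first female slide. That slide had its own scanner protocol, and its sham arrays, replicates 1, 3 and 5, read 6.01, 6.51 and 6.12. A cause was not tested. The difference from sham was 0.65 ± 0.34 (limma, adjusted p = 0.282), with 1.68 within that slide and -0.08 within the other female slide. At A_44_P409820 they were 5.44, 4.50, 5.84, 6.18 and 5.80 in sham and 4.47, 5.13, 4.58, 4.75 and 5.20 in CLP, a difference of -0.73 ± 0.26 (adjusted p = 0.101), with -0.76 and -0.59 within the slides. The signs were again opposite for the drug against CLP, -1.04 ± 0.33 (adjusted p = 0.276) and 0.46 (adjusted p = 0.612), and within the slides these were -2.25 and -0.16 at the first probe and 0.42 and 0.46 at the second. In males the CLP vs sham differences were 0.03 (adjusted p = 0.943) and -0.67 (adjusted p = 0.101). No direction is therefore given for Faslg.

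The remaining ligands did not pass in limma, and those with the largest differences are named after their values were seen. Tnfsf15, a ligand made by endothelium, was tested in females only because of sham, where 5 of 5 arrays were well above background, against 1 of 5 with CLP and 1 of 6 with CLP plus landiolol. Its means were 4.95 in sham, 3.09 in CLP and 3.40 in CLP plus landiolol, and the difference of -1.86 ± 0.47 for CLP vs sham (limma, adjusted p = 0.0215) was called by SAM, as was that for CLP plus landiolol vs sham. Since the probe was tested because of sham, where it was high, these falls are no support. Tnfsf9, the ligand of 4-1BB, differed by -0.72 (adjusted p = 0.111) in males and -1.04 (adjusted p = 0.0959) in females, and Tnfsf8, the ligand of CD30, by -0.77 (adjusted p = 0.13) in males. SAM called Tnfsf8 and Tnfsf12 for the drug against CLP in males, where limma gave 0.92 (adjusted p = 0.173) and 0.36 (adjusted p = 0.175). Tnfsf13b, or BAFF, the B cell survival factor, differed by -0.03 in males and -0.94 in females (adjusted p = 0.964 and 0.122). Tnfsf13, or APRIL, differed by 0.05 and 0.08, and Tnfsf12, or TWEAK, by -0.29 in both sexes.

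**Figure D3:**
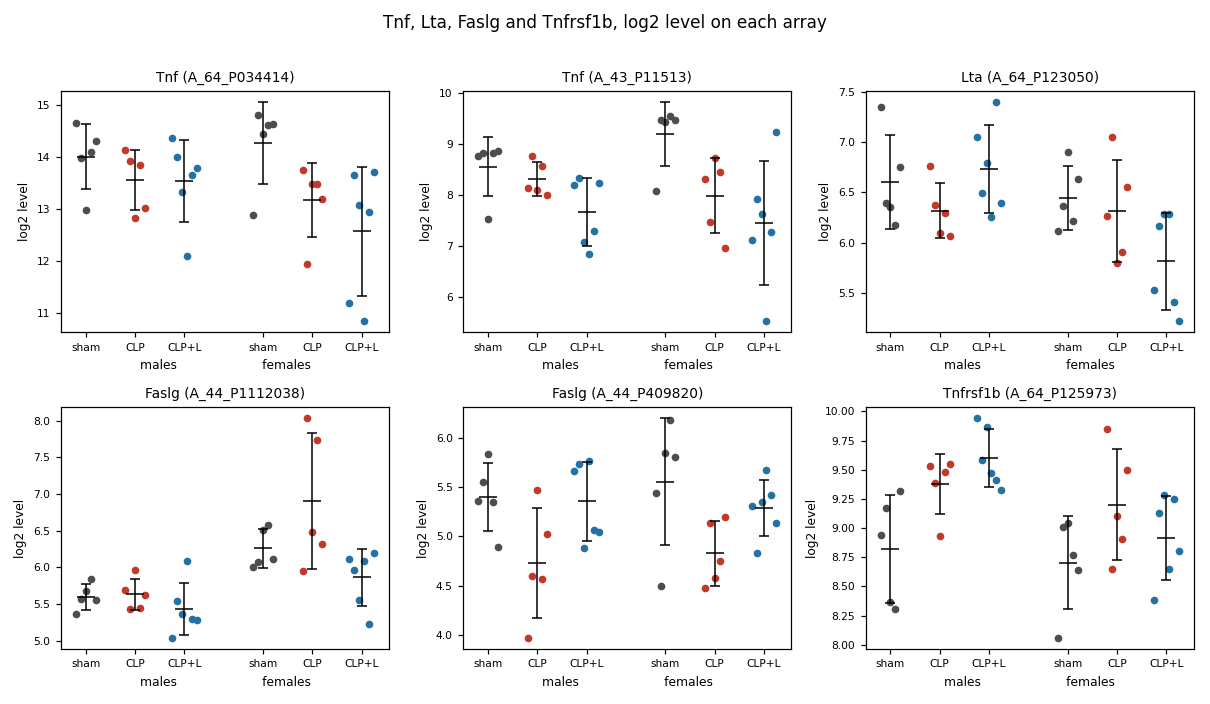
Log2 level on each array (points) with the mean and SD (bars) for both probes of Tnf, for Lta, for both probes of Faslg and for Tnfrsf1b, by group and sex. None of these passed the FDR in limma, while for CLP plus landiolol vs sham SAM called Tnf in females and Tnfrsf1b in males. The 2 Faslg probes move apart in females, where CLP replicates 2 and 4 read 8.03 and 7.74 at one of them.

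Of 5 receptors with a death domain, 4 were tested (Tnfrsf1a, Fas, Tnfrsf21 and Tnfrsf25), and their median difference for CLP vs sham was 0.19 in males and 0.18 in females. Tnfrsf1a, the receptor through which soluble TNF mostly signals, was the member that rose in males. Male levels were 11.76, 11.30, 11.16, 10.97 and 11.36 in sham and 12.08, 11.94, 12.04, 12.78 and 12.18 in CLP, and 11.92 to 12.41 with a median of 12.10 in CLP plus landiolol. All 11 male septic arrays lay above all 5 sham arrays. The rise was 0.89 ± 0.17 with CLP (limma, adjusted p = 0.00224), 0.49 and 1.32 within the 2 slides, and 0.83 ± 0.16 with CLP plus landiolol (adjusted p = 0.00455), 0.71 and 0.87 within the slides. The septic groups with and without the drug differed by -0.07 (adjusted p = 0.869). In females levels were 10.97, 11.57, 11.62, 10.85 and 11.33 in sham, 12.04, 11.27, 11.63, 11.68 and 12.01 in CLP, and 11.24 to 12.14 with a median of 11.56 in CLP plus landiolol. The female groups overlapped, with 0.46 ± 0.21 (adjusted p = 0.197) for CLP vs sham and 0.33 (adjusted p = 0.314) for CLP plus landiolol vs sham. The male CLP vs sham call held without each of the 16 arrays in turn and was lost only in a fit of these 2 groups alone (adjusted p = 0.0123). The call for CLP plus landiolol vs sham was lost without sham replicate 2, 3, 4 or 5 or CLP plus landiolol replicate 1 or 3 (adjusted p of 0.0111 to 0.0162).

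Fas, the receptor that starts the caspase cascade, fell in female CLP plus landiolol. At A_44_P463745 female levels were 6.01, 6.46, 5.95, 5.88 and 6.85 in sham, 5.55, 4.74, 5.35, 5.37 and 5.81 in CLP, and 4.26 to 5.56 with a median of 5.20 in CLP plus landiolol, where 4 of 6 arrays were well above background. Both septic groups lay below sham without overlap. The fall with CLP plus landiolol was 1.21 ± 0.26 (limma, adjusted p = 0.00614), with -1.15 and -1.24 within the slides, while CLP vs sham was -0.87 ± 0.27 (adjusted p = 0.0552). The call was lost without sham replicate 1, 2 or 5 or CLP plus landiolol replicate 2, 3 or 4 (adjusted p of 0.0103 to 0.0197). It was also lost with no filter on dim probes (adjusted p = 0.0127), in a fit of only the 2 groups (adjusted p = 0.0104) and in the authors' log2 values (-0.69, adjusted p = 0.0285), and with normexp background correction it passed at a smaller size (-0.48, adjusted p = 0.00989). The second Fas probe, A_64_P131736, was tested in females only because of sham (5 of 5 arrays well above background, against 2 of 5 with CLP and 2 of 6 with CLP plus landiolol), so its differences of -1.11 (adjusted p = 0.0352) and -1.08 (adjusted p = 0.0257) are no support. In males Fas differed by -0.19 for CLP vs sham (adjusted p = 0.752), by 0.57 ± 0.30 for the drug against CLP (adjusted p = 0.393) and by 0.37 for CLP plus landiolol vs sham.

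Tnfrsf21, or DR6, a death receptor known from neurons and T cells, was the member that fell with landiolol in males. Male levels were 7.88, 8.13, 7.68, 8.01 and 8.15 in sham, 8.01, 9, 8.39, 8.72 and 8.61 in CLP, and 7.10 to 8.03 with a median of 7.78 in CLP plus landiolol. CLP replicate 1, at 8.01, overlapped with the treated arrays, and the other 4 CLP arrays were above all of them. Tnfrsf21 fell by 0.83 ± 0.19 with landiolol (limma, adjusted p = 0.0374), with -0.71 and -0.99 within the slides. CLP vs sham was 0.58 ± 0.20 (adjusted p = 0.059) and CLP plus landiolol vs sham was -0.26. In females, levels were 6.93, 7.34, 7.92, 7.72 and 7.84 in sham, 7.90, 8.17, 8.38, 8.43 and 8.09 in CLP, and 7.53 to 8.31 with a median of 8.16 in CLP plus landiolol. The female differences were 0.64 ± 0.20 for CLP vs sham (adjusted p = 0.0575), -0.17 for the drug against CLP (adjusted p = 0.856) and 0.47 for CLP plus landiolol vs sham (adjusted p = 0.122). The male call was lost without any one of CLP replicates 2 to 5 or of CLP plus landiolol replicates 2, 3, 5 and 6 (adjusted p of 0.0519 to 0.119). Tnfrsf25, or DR3, the receptor of Tnfsf15, differed by -0.19 and -0.09 for CLP vs sham in males and females.

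Of 4 decoy receptors listed, 3 were on the array, and these 3 were tested. In limma 0 passed, with 2 in each sex at an unadjusted p under 0.05 for CLP vs sham, where 28.8% and 23.1% of all probes were. Their median for CLP vs sham was 0.73 in males and 0.62 in females. Tnfrsf26, a rodent member of this group, is named after its values were seen. In males it read 10.05, 9.83, 9.86, 9.33 and 10.31 in sham and 11.32, 10.85, 10.59, 11.42 and 10.79 in CLP, without overlap, a difference of 1.12 ± 0.29 (limma, adjusted p = 0.016). In females it read 9.83, 9.55, 9.97, 9.19 and 9.49 in sham and 11.16, 9.87, 10.34, 10.31 and 11.49 in CLP, a difference of 1.03 ± 0.30 (adjusted p = 0.0403). SAM and a fit of only the 2 groups called it in males. Tnfrsf22, a rodent decoy of TRAIL, differed by 0.73 (adjusted p = 0.123) and 0.62 (adjusted p = 0.15), and Tnfrsf11b, or osteoprotegerin, the decoy of RANKL and TRAIL, by -1.09 (adjusted p = 0.188) in males and -0.18 in females.

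Of 13 other receptors, 10 were tested, with medians for CLP vs sham of 0.22 in males and -0.02 in females. When each gene was read by its brightest probe, 0 passed in limma. For CLP vs sham 2 in each sex had an unadjusted p under 0.05, where 28.8% and 23.1% of all probes had. Cd40, the costimulatory receptor of antigen-presenting cells and endothelium, passed at other probes. At A_42_P666951 female levels were 10.30, 11.29, 10.04, 9.75 and 12 in sham, 9.40, 8.33, 8.54, 8.86 and 9.35 in CLP, and 8.18 to 8.95 with a median of 8.78 in CLP plus landiolol. All 11 female septic arrays were below all 5 sham arrays. Cd40 at this probe fell by 1.78 ± 0.36 with CLP (limma, adjusted p = 0.00556), with -2.19 and -1.43 within the slides, and by 1.99 ± 0.35 with CLP plus landiolol (adjusted p = 0.00157), with -2.17 and -1.75, and the septic groups differed by -0.21 (adjusted p = 0.912). Without sham replicate 2 or CLP replicate 2, 3 or 4 the CLP vs sham call was lost (adjusted p of 0.0137 to 0.0168), as it was in a fit of only the 2 groups (adjusted p = 0.0297). The call was also lost with no filter on dim probes. In males the probe read 11.04, 10.14, 8.91, 8.86 and 9.76 in sham and 9.37, 8.78, 8.48, 8.96 and 8.58 in CLP, with overlap, a difference of -0.91 ± 0.35 (adjusted p = 0.0904).

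The brightest Cd40 probe, A_44_P1104205, whose last bases are rich in A and T, read 14.46, 14.58, 14.90, 14.61 and 14.92 in female sham and 14.26, 13.89, 13.79, 14.06 and 14.88 in female CLP. These groups overlapped, with a difference of -0.52 ± 0.22 (limma, adjusted p = 0.165), and CLP plus landiolol vs sham was -0.38 ± 0.21 (adjusted p = 0.272). The dim probe A_44_P442823 read 5.90, 6.96, 5.40, 5.65 and 7.15 in female sham, 5.16, 5.68, 5.28, 5.55 and 4.75 in female CLP, and 3.25 to 5.07 with a median of 4.56 in CLP plus landiolol, where 3 of 6 arrays were well above background. Its fall with CLP plus landiolol passed (-1.75 ± 0.35, adjusted p = 0.00415) and its difference with CLP did not (-0.93 ± 0.37, adjusted p = 0.134). The call was lost without sham replicate 2 or 5 (adjusted p = 0.0132 and 0.0133), with normexp background correction (-0.67, adjusted p = 0.0107) and in the table of the authors (-0.92, adjusted p = 0.0296). In males the 2 probes differed by -0.23 (adjusted p = 0.595) and -0.34 (adjusted p = 0.489) for CLP vs sham. The 3 Cd40 probes thus had the same sign for CLP vs sham in each sex and differed in size.

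**Figure D4:**
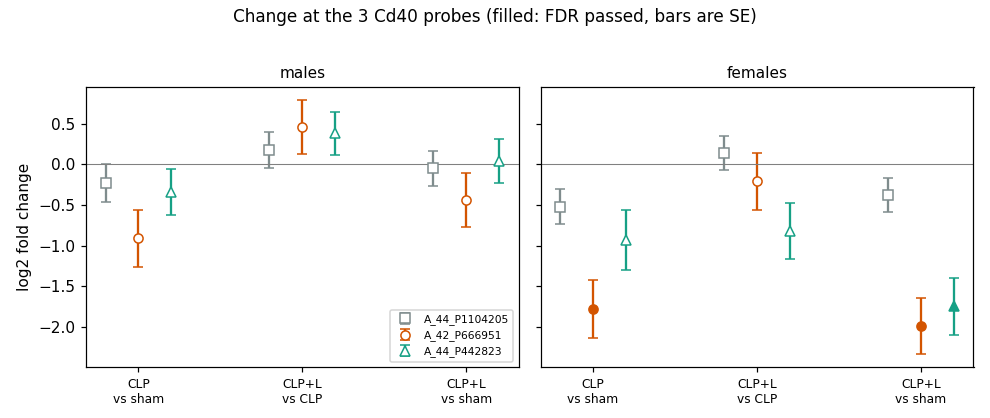
Log2 difference and its standard error (limma) at the 3 Cd40 probes in each comparison and sex, filled where the FDR was passed. In females A_42_P666951 passes in both comparisons with sham, A_44_P442823 in one, and the brightest probe, A_44_P1104205, in none.

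Tnfrsf1b, the TNF receptor found mostly on immune and endothelial cells, read 8.94, 9.17, 8.37, 8.31 and 9.32 in male sham and 9.53, 9.39, 8.93, 9.48 and 9.55 in male CLP, and 9.33 to 9.94 with a median of 9.53 in male CLP plus landiolol. All treated male arrays were above all sham arrays, while CLP replicate 3 overlapped with sham. The differences were 0.55 ± 0.20 for CLP vs sham (limma, adjusted p = 0.0804) and 0.78 ± 0.20 for CLP plus landiolol vs sham (adjusted p = 0.0192, against an FDR of 1%), and SAM called the second. In females, Tnfrsf1b differed by 0.50 ± 0.25 for CLP vs sham (adjusted p = 0.249). Tnfrsf14, or HVEM, named after its values were seen, read 7.17, 8.71, 7.14, 7.01 and 8.27 in female sham and 8.56, 9.20, 8.78, 8.43 and 9.23 in female CLP, a difference of 1.18 ± 0.32 (adjusted p = 0.0278), and differed by 0.58 in males (adjusted p = 0.377). For CLP plus landiolol vs sham Tnfrsf14 differed by 1.14 in males and 1.1 in females. Neither passed in limma, and SAM called both.

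Whether males and females responded differently was tested as an interaction over the 32 arrays. In each of the 3 comparisons, 0 of 26492 probes (0%) passed an FDR of 5% in limma, members included. At an unadjusted p under 0.05 there were 0 member probes for CLP vs sham, 5 for the drug against CLP and 9 for CLP plus landiolol vs sham, of 34 (0%, 14.7% and 26.5%), where 3.76%, 4.93% and 6.3% of all probes were. The lowest adjusted p among members was 1, 0.968 and 0.473. SAM was not run for the interaction. The male change in CLP plus landiolol vs sham exceeded the female change by 1.57 ± 0.40 for Fas and 1.77 ± 0.46 for Cd40 at A_44_P442823 (both adjusted p = 0.473), by 1.14 for Ltb (adjusted p = 0.601) and by 1.47 for Tnfsf10 (adjusted p = 0.609). For Tnfrsf21 the value was -0.73 (adjusted p = 0.656), and for Tnfrsf1a it was 0.49 (adjusted p = 0.816). The female change in this comparison cannot be told apart from the row of the slide, and the interaction fit held no term for the row. For CLP vs sham the Tnfrsf1a changes of 0.89 in males and 0.46 in females differed by 0.43 ± 0.27 (adjusted p = 1). A member that passed in one sex and not in the other was therefore not shown to differ between the sexes.

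Genes on the path to and from these receptors were read in lists, each gene by its brightest probe. Of 8 family members outside the naming rule (Cd70, Cd27, Ltbr, Ngfr, Eda, Edar, Eda2r and Relt), 5 were tested and 0 passed in limma for CLP vs sham. There 1 in males and 2 in females had an unadjusted p under 0.05 (all probes 28.8% and 23.1%). Of 34 adaptors, kinases and death effectors, all 34 were tested, with medians for CLP vs sham of 0.00 in males and -0.17 in females, and 1 rose and 1 fell in each sex. Otulin, which removes linear ubiquitin chains from the TNF receptor complex, rose by 1.22 ± 0.16 in males (limma, adjusted p = 0.000102) and 1.08 ± 0.17 in females (adjusted p = 0.00108). Its 2 dimmer probes, A_44_P877632 and A_44_P1091897, differed by 1.17 and 0.89 in males (adjusted p = 0.037 and 0.123) and by 1 and 0.30 in females (adjusted p = 0.0417 and 0.71). Traf6, an adaptor of CD40 and Toll-like receptors, fell by 0.84 ± 0.17 in females (adjusted p = 0.00585) and differed by 0.28 in males (adjusted p = 0.29). Without single arrays, adjusted p reached 0.0185 for Traf6 in females, and a fit of only the 2 groups gave 0.0153.

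Of 28 genes that TNF is known to induce or that feed back on it, 27 were tested in males and 28 in females, and only Tnfaip8, an inhibitor of caspase-mediated death, passed for CLP vs sham. It fell by 1.49 ± 0.19 in males (limma, adjusted p = 0.000126) and 1.01 ± 0.14 in females (adjusted p = 0.000431). The medians of the list were 0.12 in males, with 18 of 27 above 0, and -0.04 in females, with 11 of 28 above 0. With the drug, against CLP, they were -0.04 and -0.39, with 13 of 27 and 3 of 28 above 0 and 0 passing in limma. There 3 and 1 had an unadjusted p under 0.05 (all probes 14.8% and 9.34%). Of 10 genes of TNF processing and mRNA turnover, 1 rose and 1 fell in males for CLP vs sham and 0 passed in females, where 2 had an unadjusted p under 0.05 (all probes 23.1%). Mapkapk2, the kinase that stabilises the Tnf mRNA, rose by 0.91 ± 0.20 with CLP in males (adjusted p = 0.00486) and fell by 1.25 ± 0.19 with landiolol (adjusted p = 0.00484), without overlap in either case, and in females it differed by 0.96 ± 0.27 (adjusted p = 0.0335) and -0.92 (adjusted p = 0.197). Its male CLP vs sham call was lost without sham replicate 1, 2, 3 or 5 or CLP replicate 3 or 4 (adjusted p of up to 0.0146). Timp3, the inhibitor of the protease that releases TNF, fell by 0.99 ± 0.24 in males (adjusted p = 0.00943, up to 0.0277 without single arrays) and differed by -0.43 in females (adjusted p = 0.241). Its other probes gave -0.87 in males at A_43_P11604, which passed (adjusted p = 0.00854), and -0.81 at A_44_P282443, which did not (adjusted p = 0.0106).

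Markers of the cell types that could carry these transcripts moved as well, and their part in the results above was not tested. Of 11 neutrophil markers, 4 were tested in males and 5 in females. The summed level of these ran from 12.76 to 13.67 in male sham, 14.47 to 15.99 in male CLP and 13.99 to 14.99 in male CLP plus landiolol, and from 12.86 to 13.78, 14.77 to 15.38 and 13.90 to 15.19 in females. The sum adds linear intensities, so bright genes weigh most in it. Read gene by gene, the drug against CLP had a median log2 difference of 0.82 in males. There 3 of 4 were above 0, and 1 passed in limma, downwards. In females the median was 0.49, with 4 of 5 above 0 and 0 passing. Set against sham, CLP had a median of 3.34 in males, with 3 of 4 above 0. In limma 3 passed upwards there and 1 downwards. The female median for CLP vs sham was 1.95, with 3 of 5 above 0, and 2 passed upwards and 1 downwards. Lcn2 rose by 5.10 in males (limma, adjusted p = 6.72e-07) and 3.82 in females (adjusted p = 5.97e-05), whereas Ncf1 fell by 1.42 in males (adjusted p = 0.00254) and fell by 1.71 in females (adjusted p = 0.00404), and Cxcr1 and Mmp8 were well above background on 0 of 32 arrays. Of 10 macrophage and monocyte markers, 9 were tested and 4 rose in males and 3 in females. Their sums, over 9 genes in males and over the 8 with a value on every array in females, were 13.56 to 14.04 in male sham, 14.96 to 15.52 in male CLP and 14.56 to 15.50 in male CLP plus landiolol, and 13.93 to 14.48, 14.99 to 15.64 and 14.91 to 15.65 in females.

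Of 14 T and NK cell markers, 9 were tested in males and 8 in females. Their median difference for CLP vs sham was -0.86 in males, with 0 of 9 above 0, and -0.60 in females, with 2 of 8 above 0. Gzmb fell in females by 1.84 (limma, adjusted p = 0.0042), the one call for CLP vs sham on this list. In males given the drug all 9 were above 0 against CLP, with a median of 0.24 and 0 passing in limma, where 3 had an unadjusted p under 0.05 (all probes 14.8%). In females 5 of 8 were above 0 against CLP, with a median of 0.13 and 0 passing. The sums were 11.35 to 11.63 in male sham, 11.14 to 11.37 in male CLP and 11.27 to 11.67 in male CLP plus landiolol, and 11.03 to 11.55, 10.64 to 11.49 and 11.08 to 11.34 in females. Of the 14, Cd3d, Cd4, Nkg7 and Prf1 were well above background on 32 of 32 arrays, Cd3g on 31 and Gzmb on 30, and the others ran from Klrd1 on 17 through Cd2 on 12, Cd8b on 11, Cd8a on 9, Lck on 8, Ncr1 on 3 and Cd3e on 2 to Cd5 on 0. Among B cell markers Pax5 and Cd22 were above background on 32 of 32 arrays, and Cd79a on 3, Cd79b on 1 and Ms4a1 on 0. Pax5 and Cd22 were tested and 0 passed in limma, with 0 at an unadjusted p under 0.05. All 8 cardiomyocyte markers were tested and 0 passed for CLP vs sham in either sex in limma, with 1 in each sex at an unadjusted p under 0.05 (all probes 28.8% and 23.1%). Their sums were 20.95 to 21.25 in males and 21.05 to 21.35 in females. Of 8 endothelial markers 1 fell in each sex for CLP vs sham. Of 7 fibroblast markers 1 rose and 4 fell in males and 0 passed in females, where 6 had an unadjusted p under 0.05 (all probes 23.1%).

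The row of the slide touched every female call. Among female arrays of row 1 alone, 3 CLP arrays differed from the 5 sham arrays by -1.35 for Ltb, -2.08 for Tnfsf10 (A_42_P840729) and -2.31 at its other probe, -1.93 for Cd40 at A_42_P666951 and -1.01 for Fas at A_44_P463745. These values, given without a test, had the sign and about the size of the differences over all female arrays. With the row as a term in limma, CLP vs sham was -1.36 for Ltb (adjusted p = 0.0177), -2.08 for Tnfsf10 (adjusted p = 0.0103) and -1.92 for Cd40 (adjusted p = 0.0181), each past an FDR of 5% and short of 1%. Where row and treatment coincide, in CLP plus landiolol vs sham, the term left -0.90 for Ltb (adjusted p = 0.553), -2.34 for Cd40 (adjusted p = 0.167) and -1.58 for Fas (adjusted p = 0.213). There the row could be estimated only from the female CLP arrays, 3 in row 1 and 2 in row 2. These values therefore cannot separate the row from the treatment.

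**Figure D5:**
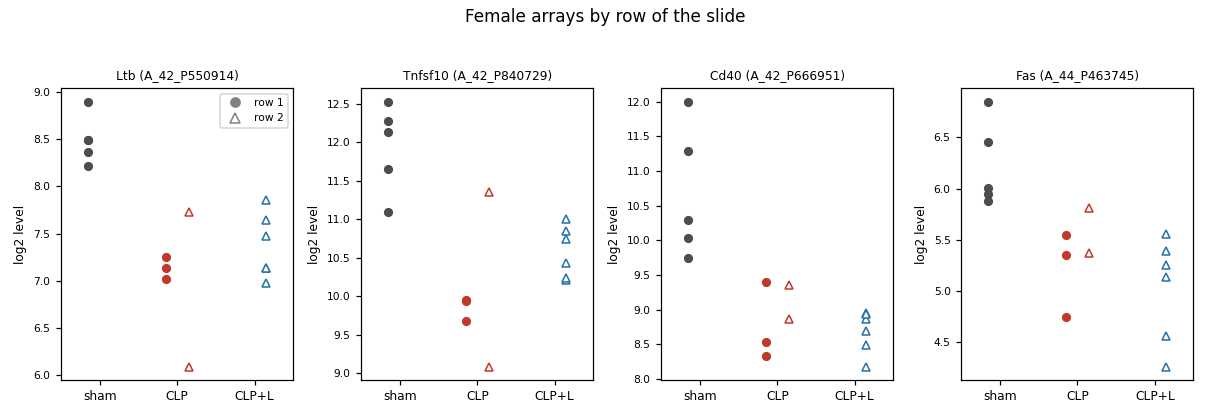
Log2 level on each female array for Ltb, Tnfsf10, Cd40 and Fas, by group, with filled circles for row 1 of the slide and open triangles for row 2. The CLP arrays of row 1 lie below the sham arrays, all of which are in row 1, and all CLP plus landiolol arrays are in row 2.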

How the data were processed

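Total RNA of 32 left ventricles (RNA integrity number above 8) was labelled with Cy3 and hybridised to 1-colour Agilent rat arrays. The authors deposited the intensity of each spot as scanned, background-subtracted and detrended by Agilent Feature Extraction 10.5 per the submitters' processing notes, and log2 values after quantile normalisation, whose offset before the log is unknown, used here as an alternative (Spearman correlation with the scanner values of 0.995 to 1). The authors compared groups by SAM with permutations.

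From the scanner files, processed intensities were converted to log2, spots marked as outliers were left out (213 probe values missing) and replicate spots were averaged, before quantile normalisation of the 16 male and of the 16 female arrays. A probe stayed in if 80% or more of the arrays in any group were well above background. The tests used limma 3.58.1 (lmFit, eBayes without a trend) in R 4.3.3 with data.table (version 1.17.8) over the 3 groups of a sex, with Benjamini-Hochberg adjustment over all probes kept and an FDR of 1% against sham and of 5% between the septic groups. The sex by treatment interaction was fitted on all 32 arrays after joint normalisation (FDR 5%). The limma and SAM steps were tested on simulated arrays with known log2 shifts at some probes. Replicates are separate rats, their number limits the precision, and 0 spots were saturated. Replicate numbers follow accession order and pair nothing.

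The brightest probe on average stood for a gene, and its other probes were given where their sign or call differed. Named were Tnf, Tnfrsf1a, Tnfrsf1b, Fas, Faslg, Cd40, Cd40lg, Lta, Ltb, every member that passed an FDR and, from each other list, up to 3 genes with the lowest adjusted p among those that passed for CLP vs sham, of which 1 is not reported here. Members, lists and markers were chosen with earlier results of these data known. Alternatives tried were the 75th percentile as the scale, normexp (offset 50), other filters, only the groups compared, slide or slide row as a term, joint normalisation, the authors' log2 values, exchanged FDR levels, SAM with 100 permutations, other probes, and leaving out each array. Sequences were read in Python 3.11.15 (pandas 2.3.3, numpy 2.4.6) and figures drawn with matplotlib 3.10.9. Coordinates of probes are those of the files (rn4), and promoters are from RefSeq (GRCr8).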

Additional observations from a re-analysis of the deposited data

Results flagged for a closer look

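Of 96 groups of 5 or 6 arrays (the named members and probes in each group), 9 held an array far from the rest of its group, where chance marks about 5% of groups. The value of that array is given first and its nearest neighbour second, both as log2 levels. For Tnf, female sham replicate 1 was low at both probes, 12.88 against 14.43 at A_64_P034414 and 8.07 against 9.44 at A_43_P11513, and male sham replicate 3 was low at A_43_P11513, 7.52 against 8.76. For Tnfsf10, male CLP replicate 1 was high at A_42_P840729, 10.33 against 9.53, and male CLP plus landiolol replicate 5 was low at A_42_P733671, 1.90 against 4.44. Tnfrsf1a was high in male CLP replicate 4, 12.78 against 12.18, and Tnfrsf1b was low in male CLP replicate 3, 8.93 against 9.39. Fas was low in male CLP plus landiolol replicate 4, 4.73 against 5.77, at A_44_P463745. Cd40 was low in female CLP plus landiolol replicate 3, 3.25 against 4.42, at A_44_P442823.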

How the results depend on the processing

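No direction of a called member was reversed by an alternative. Counts below are TNF superfamily genes past the FDR. Shares of all probes were not computed for the alternatives. A larger count, as by SAM or at an FDR of 5%, therefore cannot be read as a result about the members. For CLP vs sham in males the count was 1, and 3 by SAM, 3 at an FDR of 5% and 2 with the slide as a block, and with only the 2 groups fitted Tnfrsf26 passed instead of Tnfrsf1a. The drug against CLP in males gave 1, and 5 by SAM, 2 with the slide as a block, and 0 with no filter on dim probes, with the slide row as a term and at an FDR of 1%. With only these 2 groups fitted, Tnfsf10 passed instead of Tnfrsf21 (adjusted p = 0.0989). CLP plus landiolol vs sham in males gave 1, and 3 by SAM and 2 at an FDR of 5%. For CLP vs sham in females it was 3, and 7 at an FDR of 5%, and 0 with only the groups compared in the fit and with the row as a term. With no filter on dim probes Cd40 was lost there. CLP plus landiolol vs sham in females gave 3, and 8 by SAM, 8 at an FDR of 5%, 1 with no filter and 0 with the row as a term. CLP plus landiolol vs CLP in females and the 3 interactions gave 0 in every setting run. In all, 61 of these counts stayed within 1.5 times the reported one and 17 did not. Leaving out 1 array at a time gave 1 to 2, 0 to 2 and 0 to 1 genes in males for CLP vs sham, CLP plus landiolol vs CLP and CLP plus landiolol vs sham, 2 to 4, 0 to 0 and 1 to 4 in females, and 0 to 0 for the interactions. Causes were not tested, beyond fewer arrays in the smaller fits. No paired analysis was run, since the groups are separate rats with nothing to pair. Dim probes limit Tnfsf10 A_42_P733671, Cd40 A_44_P442823, Fas and Tnfsf15, whose low groups were partly below background.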
